A study of Mus musculus with 12 samples.

Results

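The change in gene expression between 4 h and 24 h of continued BMP6 treatment was described in MECs, a line of mouse intraembryonic endothelial cells. The comparison uses 6 of the series' 12 two-colour Agilent arrays: those titled 4h-1 to 4h-3 and those titled 24h-1 to 24h-3, paired by the number in the title. All 20280 value rows of the deposited table were tested, and 8267 named genes could be averaged from them. All cells of both groups had received BMP6, so the comparison is between an early and a late time of treatment and contains no untreated cells. The 3 arrays of mock-treated cells are given only as values to the side, and the labels state no harvest time for them. The 3 arrays of 12 h of BMP6 entered the fit for the spread and are shown as an intermediate time. Each array compared Cy5-labelled cell RNA with a Cy3-labelled universal mouse reference RNA, and each group held 3 independent biological replicates per the labels. The labels give no BMP6 dose and do not say what same-numbered arrays share. All arrays come from a single cell line.

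BMP6 is a secreted ligand of the TGF-beta superfamily that binds paired serine/threonine kinase receptors, which phosphorylate SMAD proteins that then enter the nucleus. Genes induced directly by these SMADs include the Id family, inhibitors of basic helix-loop-helix transcription factors. Growth factor responses also include early transcripts whose products feed back on the kinase cascades that induced them. Cyclooxygenase 2, encoded by Ptgs2, is a classic inducible gene and makes the precursor of all prostanoids; it is named in the title of the series.

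Values are deposited log ratios, read here as log2 of the cell signal over that of the reference. No source used here states the log base or the direction of the ratio; with the ratio inverted, all rises and falls below would trade places, and with another base the folds would differ. Gene names depend on a reordering of array positions: under it the first 2 probes of a gene correlated in their 24 h minus 4 h difference with Pearson r = 0.393 over 1831 genes, against 0.026 in the deposited order (a correlation across genes, which are not independent replicates). Array medians in the 6 arrays lay between -0.04 and 0.002 and correlations between the 6 arrays between 0.91 and 0.971. Deviations from the group mean correlated between same-numbered 4 h and 24 h arrays at 0.622, 0.556 and 0.451, and between differently numbered ones at -0.421 to -0.0575. Deviations within a group sum to 0, so positive correlations between same numbers push those between different numbers below 0. The negative values are therefore no separate evidence for the pairing. Of the sum of squares over the 6 arrays, 61.24% went with the replicate number, 20.24% with time and 18.52% with neither. The replicate number and the remainder each hold more degrees of freedom than time, and random variation alone gives each source a share. The share of time is therefore not read as the size of a time effect. Of the endothelial identity genes fixed as markers, 2 of 13 measured lay above 0 relative to the reference; Pecam1 and Cdh5, which define the lineage, were at -1.69 and -1.73 at 4 h and at -1.80 and -1.73 at 24 h. With the ratio inverted, those 2 genes would lie below the reference and Pecam1 and Cdh5 above it by the same amounts.

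Between 4 h and 24 h, 507 of 8267 genes (6.13%) changed, 269 lower at 24 h (3.25%) and 238 higher (2.88%), at an adjusted p under 0.05 in a limma fit with the replicate number as a block. The differences were mostly small: the median fall was -0.31 and the median rise 0.28 on the log2 scale, and 64 of the 507 exceeded 0.5 in size and 3 exceeded 1. All 507 moved in the same direction in 3 of 3 pairs, as did 40.4% of all genes. In 330 of the 507 the 4 h and 24 h arrays did not overlap, against 12.0% of all genes. Both counts use the arrays on which the genes were called, so they are no separate support for the calls. Median absolute differences of the called genes were 0.245, 0.315 and 0.329 in pairs 1, 2 and 3. Among single value rows, 543 of 20280 (2.68%) passed, 294 lower (1.45%) and 249 higher (1.23%). The calls rest on the pairing and on all 3 pairs. Without the block 7 genes (0.0847%) passed (Cavin2, Hbegf, Phlda1, Ptgs2, Tnfrsf12a, Txnrd1 and Ube2h, which the naming rule did not pick). Without replicate 1, 2 or 3 the paired fit called 309, 0 and 23 genes, with 1810, 1439 and 1404 genes at an unadjusted p under 0.05. On the 6 arrays of 4 h and 24 h alone it called 109. Of the 94 called genes that the rule below names, 71 passed without replicate 1 and 0 without replicate 2, where their adjusted p-values lay between 0.068 and 0.254. Without replicate 3, 9 passed: Ptgs2, Tnfrsf12a, Wnt2, Sgk1, Dusp6, Phlda1, Col4a1, Armcx2 and Armcx3. No named change turned its sign in these 3 fits, and leaving out replicate 3 moved Sap30 from 0.61 to 0.40 and Tpi1 from 0.40 to 0.27.

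**Figure D1:**
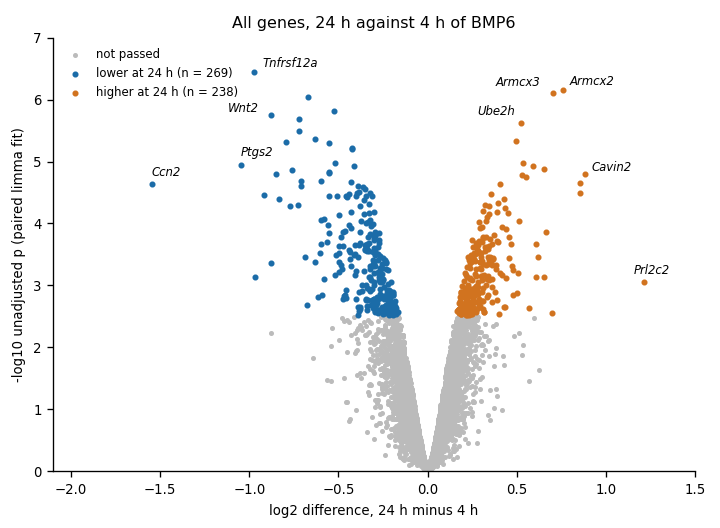
All 8267 genes by their log2 difference (24 h minus 4 h, horizontal) and the -log10 of the unadjusted p of the paired limma fit (vertical); each point is a gene, blue for the 269 lower and orange for the 238 higher at 24 h. Ccn2 and Ptgs2 lie farthest to the left and Prl2c2 farthest to the right, while Tnfrsf12a, Armcx2 and Armcx3 lie among the highest points.

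The gene with the largest fall was Ccn2, which encodes a secreted matricellular protein induced by TGF-beta and by cytoskeletal tension. Its log2 ratio was 1.58, 1.98 and 1.22 in 4 h replicates 1 to 3, and 0.11, 0.026 and -0.009 in 24 h replicates 1 to 3. All 4 h arrays lay above all 24 h arrays, and the level fell 2.92-fold (log2 difference -1.55, SE 0.174, n = 3 pairs, adjusted p 0.00571). At 12 h the mean was 0.21, so that 89.0% of the fall lay before 12 h. Mock-treated cells stood at 0.22 ± 0.143 (SD, n = 3).

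Ptgs2 stood at 4.08, 4.37 and 4.57 in 4 h replicates 1 to 3 and at 3.22, 3.32 and 3.33 in 24 h replicates 1 to 3. The 24 h arrays were all lower than the lowest 4 h array and were closer to each other. The fall was 2.07-fold (log2 difference -1.05, SE 0.106, adjusted p 0.00496), with 66.6% of it before 12 h. Mock-treated cells stood at 2.99 ± 0.46 (SD, n = 3), and the 24 h mean of 3.29 was 0.30 above them (adjusted p 0.726 in the 12-array paired fit), against 1.35 at 4 h. The prostacyclin synthase Ptgis, which converts the product of cyclooxygenase, also fell, with a log2 difference of -0.52 (SE 0.0521, adjusted p 0.00496). The prostaglandin E2 receptor gene Ptger2 rose by 0.36 (SE 0.0597, adjusted p 0.0167). Ptges, a prostaglandin E synthase, differed by -0.001 (95% interval -0.11 to 0.11, adjusted p 0.992). Across the prostanoid list, 2 of 10 measured members fell, 1 rose and 7 did not pass, with a median of -0.01. Over all genes tested 3.25% fell and 2.88% rose, with a median of 0.009.

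Tnfrsf12a, the receptor of the cytokine TWEAK, had the smallest unadjusted p. It stood at 2.11, 2.40 and 2.30 in 4 h replicates 1 to 3 and at 1.31, 1.32 and 1.26 in 24 h replicates 1 to 3. The groups were far apart relative to their spread, with a fall of 1.96-fold (log2 difference -0.97, SE 0.0621, adjusted p 0.00191). About as much of it lay before 12 h (49.9%) as after. The secreted ligand Wnt2 fell 1.84-fold, from 0.87, 0.25 and 0.35 in 4 h replicates 1 to 3 to -0.21, -0.56 and -0.38 in 24 h replicates 1 to 3 (log2 difference -0.88, SE 0.0693, adjusted p 0.00241). Replicate 1 was the highest at both times, and the groups did not overlap.

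**Figure D2:**
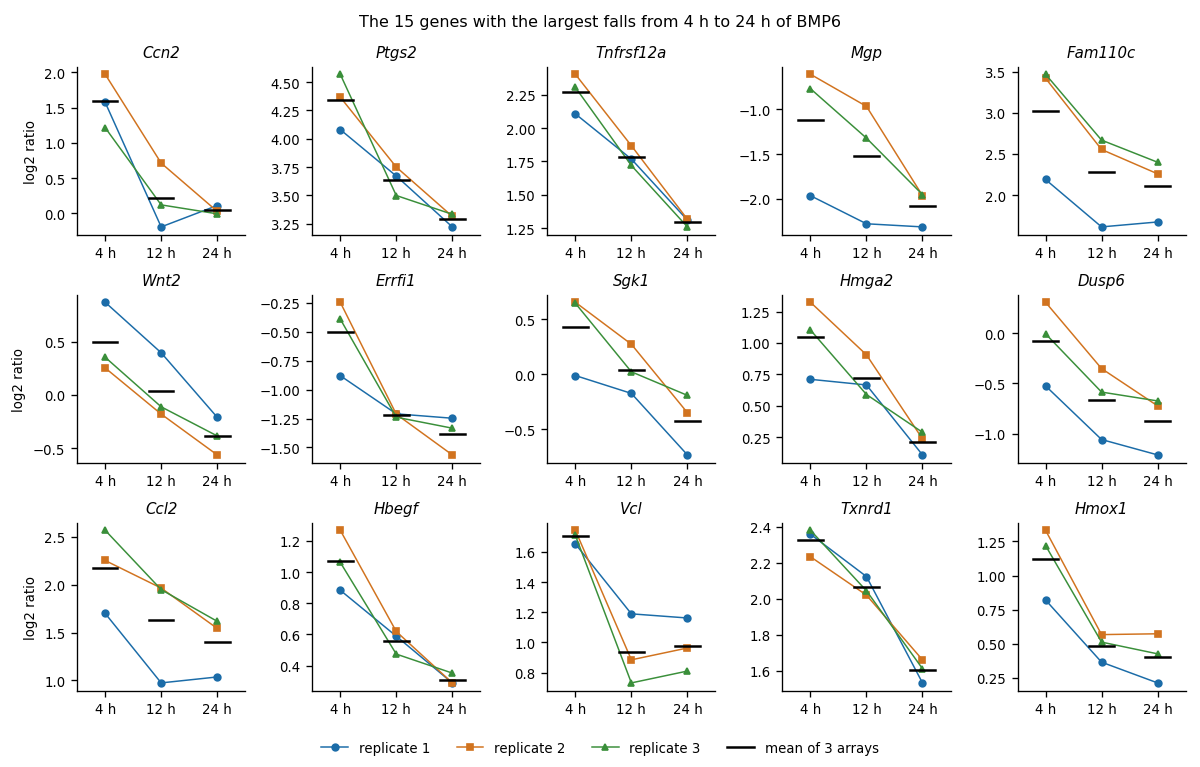
Log2 ratio of cells to reference (vertical) at 4, 12 and 24 h of BMP6 (horizontal) for the 15 genes with the largest falls; each coloured line joins the arrays of 1 replicate number and black bars are means of 3 arrays. In each panel all 3 lines end lower at 24 h than at 4 h, and in Mgp and Fam110c the level of replicate 1 lies below the other two throughout.

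Several genes of growth factor signalling fell. Of 10 measured genes on the list of MAPK feedback genes and EGF receptor ligands, 6 fell and 0 rose, with a median of -0.51. Among all genes 3.25% fell and 2.88% rose. The gene lists were chosen with earlier results of 4 h against control known, which share the 4 h arrays. List counts are therefore not independent of these data. Dusp6, a phosphatase that inactivates ERK, stood at -0.53, 0.31 and -0.007 in 4 h replicates 1 to 3 and at -1.21, -0.72 and -0.68 in 24 h replicates 1 to 3. Each 24 h array lay below every 4 h array (log2 difference -0.80, SE 0.072, adjusted p 0.00323). The EGF receptor ligand Hbegf fell from 0.88, 1.27 and 1.06 in 4 h replicates 1 to 3 to 0.29, 0.29 and 0.35 in 24 h replicates 1 to 3 (log2 difference -0.76, SE 0.0795, adjusted p 0.00507). A second ligand of this receptor, Ereg, fell by 0.47, and its 4 h and 24 h arrays overlapped. The receptor inhibitor Errfi1 fell by 0.88, Phlda1 by 0.63 and the phosphatase Dusp4 by 0.55 on the log2 scale (adjusted p 0.0175, 0.00323 and 0.00507). Egfr itself differed by 0.07, the largest value of the list. Of 15 immediate early genes, the rapid first wave of a growth factor response, 3 fell, 0 rose and 12 did not pass, with a median of -0.13: Ier3 fell by 0.60, Myc by 0.32 and Ier5 by 0.27. The serum- and glucocorticoid-induced kinase Sgk1 fell by 0.85 and the chromatin protein Hmga2 by 0.84.

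Among cytokines, chemokines and adhesion receptors, 7 of 20 measured fell and 0 rose (median -0.12), where 3.25% of all genes fell and 2.88% rose. Ccl2, which attracts monocytes, stood at 1.70, 2.25 and 2.57 in 4 h replicates 1 to 3 and at 1.04, 1.54 and 1.62 in 24 h replicates 1 to 3. The lowest 4 h array and the highest 24 h array lay close together, but each pair fell (log2 difference -0.77, SE 0.097, adjusted p 0.00691). The interleukin 1 receptor accessory chain Il1rap fell by 0.71, Tnfaip3, an inhibitor of NF-kB signalling, by 0.48, Tnfaip2 by 0.37, the NF-kB subunit gene Nfkb2 by 0.24 and the cytokine Csf3 by 0.20. The probes of Tnfaip2 ranged from -0.58 to -0.05. Of 17 interferon response genes, 1 rose (Ifit2 by 0.25), 0 fell and 16 did not pass. The share of this list that passed was near the 6.13% of all genes.

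Some cytoskeletal and matrix genes passed, and their counts stand beside 3.25% of all genes that fell and 2.88% that rose. Of 20 YAP and SRF target genes, which respond to actin tension, 4 fell, 1 rose and 15 did not pass (median -0.11). Vinculin (Vcl), which links integrins to actin, stood at 1.65, 1.74 and 1.71 in 4 h replicates 1 to 3 and at 1.16, 0.96 and 0.81 in 24 h replicates 1 to 3. The 4 h arrays agreed closely, and both Vcl probes fell, by 0.80 and 0.65; its 12 h mean of 0.94 was already as low as that of 24 h (0.98). The actin crosslinker Actn1 fell by 0.42 and Ajuba by 0.20. Of 21 integrin and focal adhesion genes, 4 fell and 0 rose: Vcl, the hyaluronan receptor Cd44 by 0.34, and the integrin subunits Itga5 by 0.36 and Itga6 by 0.21. The probes of a gene differed here: 1 Cd44 probe fell by 0.69 and the other stood at 0.008, and those of Itga5 stood at -0.62 and -0.10. Of 29 collagens, laminins and other matrix proteins, 3 fell and 0 rose. The basement membrane collagens Col4a1 and Col4a2 fell by 0.71 and 0.28 (for Col4a2, 1 probe at -0.53 and 1 at -0.03), and the collagen crosslinker Lox fell by 0.55. Mgp, an extracellular inhibitor of BMP ligands and of calcification, fell by 0.97, with overlapping groups (SE 0.18, adjusted p 0.0238). Among 19 matrix proteases and inhibitors, the protease inhibitors Timp1 and Timp2 fell by 0.58 and 0.30 and Adam8 by 0.31, while the metalloproteases Adamts5 and Adamts1 rose by 0.85 and 0.39.

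Stress genes that fell were those of the oxidative stress response and of ER folding. Of 30 heat shock and oxidative stress genes, 6 fell and 0 rose (median -0.06), where 3.25% of all genes fell and 2.88% rose. All 6 encode enzymes or enzyme subunits and are known as targets of the oxidant-responsive factor NRF2. That trait was named after the 6 were called, and the other members were not sorted by it. The other 24 did not pass, and 13 of the 30 were higher at 24 h. Without replicate 1 the list median was 0.0205. Txnrd1, thioredoxin reductase, stood at 2.36, 2.23 and 2.38 in 4 h replicates 1 to 3 and at 1.53, 1.66 and 1.61 in 24 h replicates 1 to 3, which left a wide gap between the groups (log2 difference -0.72, SE 0.058, adjusted p 0.00241). Heme oxygenase, Hmox1, fell from 0.82, 1.33 and 1.22 in 4 h replicates 1 to 3 to 0.21, 0.57 and 0.43 in 24 h replicates 1 to 3 (log2 difference -0.72, SE 0.0615, adjusted p 0.00292). Of these falls, 89.3% lay before 12 h for Hmox1 and 36.2% for Txnrd1. Nqo1 fell by 0.50, Srxn1 by 0.34, and Gclm and Gclc, the subunits of the enzyme that limits glutathione synthesis, by 0.33 and 0.29. Of 22 ER folding and unfolded protein response genes, 4 fell and 0 rose (median -0.14): the chaperone Hspa5 by 0.57, Creld2 by 0.50, Dnajb9 by 0.46 and the transcription factor Xbp1 by 0.19. The 3 probes of Hspa5 stood between -0.61 and -0.52, and its 12 h mean of 3.78 lay above that of 4 h (3.59) and of 24 h (3.03).

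Rises were led in size by Prl2c2, a prolactin family gene with near-identical copies in the genome that the probe may not separate. It stood at 4.98, 3.21 and 3.28 in 4 h replicates 1 to 3 and at 5.36, 4.85 and 4.88 in 24 h replicates 1 to 3. Replicate 1 was already high at 4 h and overlapped the 24 h arrays, and the rise was 2.32-fold with a wide error (log2 difference 1.21, SE 0.233, adjusted p 0.0261). Cavin2, a coat protein of caveolae, stood at -0.73, -1.27 and -1.03 in 4 h replicates 1 to 3 and at -0.16, -0.14 and -0.07 in 24 h replicates 1 to 3. Its groups were well separated, with a rise of 1.85-fold (log2 difference 0.88, SE 0.0939, adjusted p 0.00507), of which 77.7% lay before 12 h. Of 7 caveolar genes it was the 1 that passed, where 6.13% of all genes passed. Cav1, the main structural protein of caveolae, was the lowest of the list at -0.14. Cobl, an actin nucleator, rose 1.81-fold, from -0.30, -0.39 and -0.20 in 4 h replicates 1 to 3 to 0.27, 0.48 and 0.94 in 24 h replicates 1 to 3 (log2 difference 0.86, SE 0.0956, adjusted p 0.00571).

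Of 5 measured genes of the Armcx family, which encode armadillo repeat proteins mostly at mitochondria, 3 rose, beside 2.88% of all genes. This family is not among the 31 gene lists. It is named because these 3 are among the 15 largest rises, so the count follows from that choice and tests nothing. Armcx2 stood at 1.33, 0.54 and 0.61 in 4 h replicates 1 to 3 and at 2.02, 1.35 and 1.38 in 24 h replicates 1 to 3. Replicate 1 was the highest at both times, and its 4 h value lay just below the lowest 24 h value, so that the difference was clearest within pairs (log2 difference 0.76, SE 0.0529, adjusted p 0.00191). Armcx3 rose by 0.70 (SE 0.0497, adjusted p 0.00191) and Armcx6 by 0.65 (SE 0.0677, adjusted p 0.00507). These 3 genes are direct neighbours in the order of protein-coding genes in the RefSeq table (Armcx6, Armcx3, Armcx2). Armcx1 and Armcx4, which precede them in that order, stood at 0.12 and -0.03 and did not pass (adjusted p 0.143 and 0.73).

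Other large rises included the guidance factor Sema3a by 0.66, the mesenchymal cadherin Cdh11 by 0.62, Sap30, a subunit of a histone deacetylase complex, by 0.61, and the clock-related transcription factor Tef by 0.61. Tef was the 1 member of 8 circadian clock genes that passed, where 6.13% of all genes passed. Gm8579 rose by 0.65. The protease inhibitors Serpinb1a and Lxn rose by 0.70 and 0.57 with the least certainty among the 15 largest rises (adjusted p 0.0468 and 0.043). Scel rose by 0.59 as the mean of probes at 1.15 and 0.03, so its rise rests on 1 probe.

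**Figure D3:**
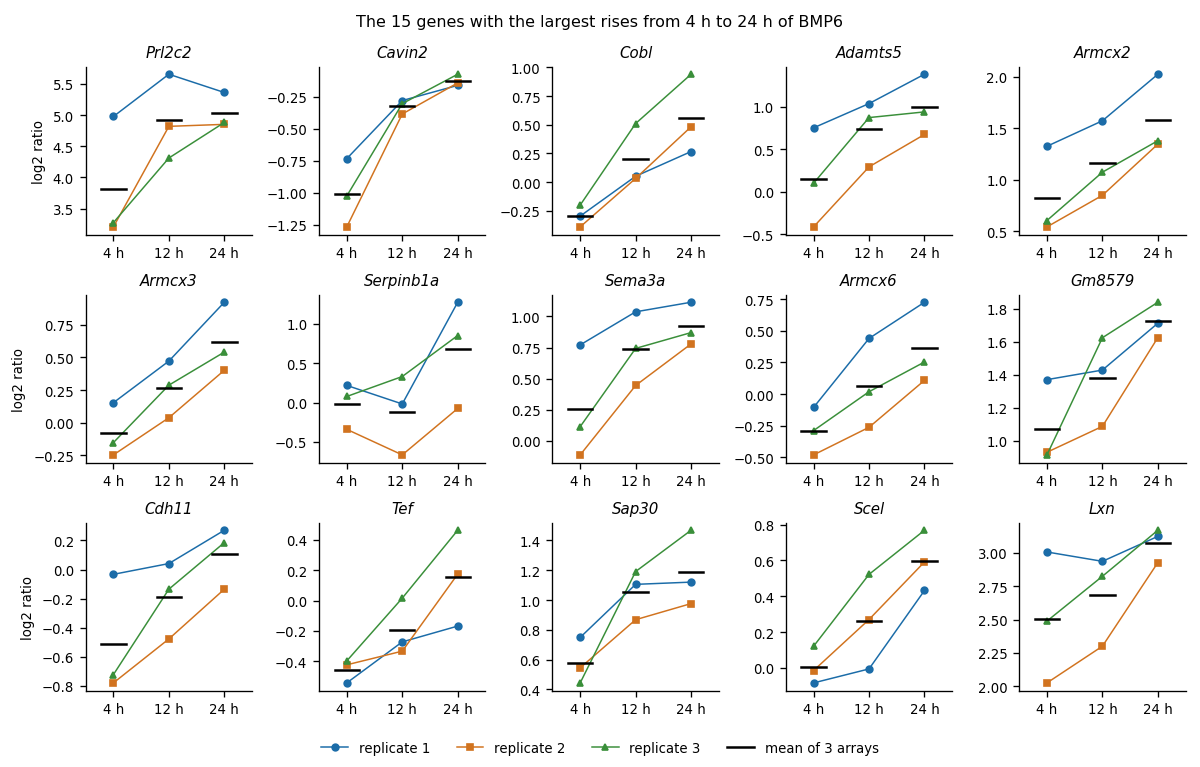
Log2 ratio of cells to reference (vertical) at 4, 12 and 24 h of BMP6 (horizontal) for the 15 genes with the largest rises; lines join the arrays of 1 replicate number and black bars are means of 3 arrays. All 3 lines end higher at 24 h than at 4 h in each panel, while levels of replicate numbers differ, as for Prl2c2 and Armcx2.

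Of 19 p53 target and growth arrest genes, 15 did not pass and 4 did, where 6.13% of all genes passed. The retinoblastoma family member Rbl2 and the p53 target Sesn1 rose by 0.51 and 0.44, while Plk2 and Btg1 fell by 0.43 and 0.30. Of 43 DNA replication and cell division genes, 38 were higher at 24 h (median 0.12) but 3 passed, all as rises: thymidine kinase Tk1 by 0.43, the mitotic regulator Birc5 by 0.36 and the mitotic kinesin Kif11 by 0.24. The list median was 0.012 in pair 1, 0.218 in pair 2 and 0.136 in pair 3. The share of this list that passed was near the 6.13% of all genes. Of 29 respiratory chain genes, 27 were higher at 24 h (median 0.11) and 0 passed, with pair medians of 0.12, -0.024 and 0.257. The median over all genes tested was 0.009. The share of all genes that were higher at 24 h is not given here, so the counts of higher members have no background beside them. Of 29 ribosomal protein genes 0 passed, and their pair medians had different signs (-0.056, -0.159 and 0.302). Of 18 ribosome biogenesis and translation genes, Eif6 and Nop56 fell by 0.35 and 0.18. Of 18 glycolysis and hypoxia genes, Tpi1 rose by 0.40 and Hk2 fell by 0.27, and of 16 cholesterol genes Dhcr7, the enzyme of the last synthesis step, rose by 0.31. The share of the cholesterol genes that passed was near the 6.13% of all genes.

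In the lists that follow, counts stand beside 6.13% of all genes that passed. Of 21 angiogenic factors and receptors, the growth factors Fgf2 and Pdgfa and the receptor Epha2 fell by 0.47, 0.44 and 0.30, while Vegfd and Sema3a rose by 0.39 and 0.66. Of 18 Wnt pathway genes, Wnt2 and Ccn4 fell by 0.88 and 0.32, while Nkd1 and Bcl9l rose by 0.36 and 0.27 (for Bcl9l, probes at 0.42 and 0.12). Of 14 Notch pathway genes 0 passed. Of the 13 endothelial identity genes, the VEGF receptor Flt1 fell by 0.25 and the other 12 did not pass. Procr, named here as the lowest value of the list, stood at -0.41. The list's mean level ran from -0.64 to -0.58 over the 4 h arrays and from -0.82 to -0.70 over the 24 h arrays. This separation was not tested, and 12.0% of all single genes did not overlap either. The pair medians of the list were -0.081, -0.18 and -0.026. Among fibroblast and mesenchymal markers, Cdh11, Prrx1 and Cdh2 rose by 0.62, 0.37 and 0.31 and the other 11 did not pass. Of the 14, 6 were lower at 24 h, with Alx1, named here as the lowest value of the list, at -0.88 (adjusted p 0.0685). The mean level of this list overlapped, from -0.36 to -0.09 at 4 h and from -0.36 to -0.07 at 24 h. Smooth muscle, blood and epithelial markers held 9, 5 and 10 measured genes, of which 0 passed, with mean levels below 0 on all 6 arrays. Of 7 liver, testis and brain markers, 1 rose, the meiotic gene Sycp3 by 0.25.

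**Figure D4:**
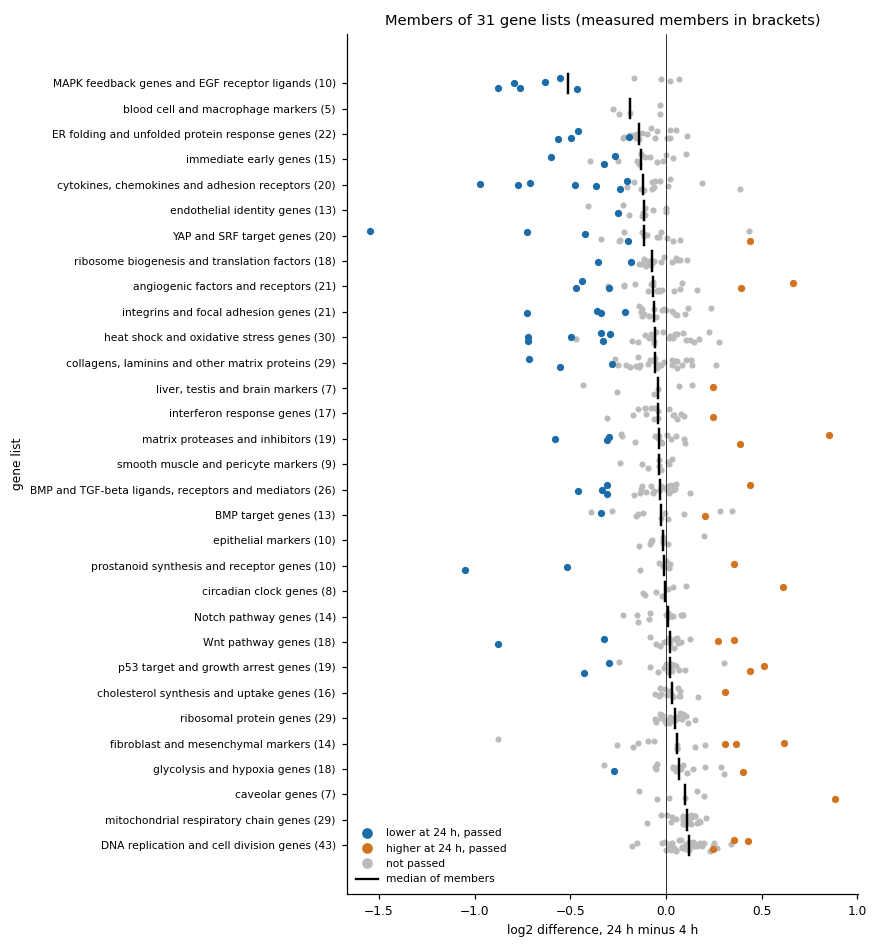
Log2 difference between 24 h and 4 h (horizontal) for the measured members of 31 gene lists (vertical, number of measured members in brackets); blue and orange points passed as lower and higher at 24 h, grey points did not, and black bars are list medians. The list of MAPK feedback genes and EGF receptor ligands has the lowest median, at -0.51, and DNA replication and cell division genes the highest, at 0.12.

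The Id genes, which BMP signalling induces through SMADs, did not pass, and their means were not lower at 24 h than at 4 h. Id1 stood at 1.07, 1.67 and 1.81 in 4 h replicates 1 to 3 and at 1.24, 1.69 and 1.901 in 24 h replicates 1 to 3. The groups overlapped almost fully, and the difference was 0.10 (95% interval -0.05 to 0.24, adjusted p 0.393). Id2 differed by 0.34 (interval 0.09 to 0.60, adjusted p 0.107) and Id3 by 0.28 (0.10 to 0.47, adjusted p 0.0781); the intervals are for a single gene and not adjusted. Without replicate 1, Id2 passed at 0.54 (adjusted p 0.0204), and under quantile normalization Id3 passed at 0.30 (adjusted p 0.0458). In the 12-array paired fit Id1, Id2 and Id3 stood 1.07, 1.19 and 0.92 above mock-treated cells at 24 h (adjusted p 0.00169, 0.00869 and 0.00169), beside 0.98, 0.84 and 0.64 at 4 h. The transition factor Snai1 stood at 1.002, 0.88 and 0.93 in 4 h replicates 1 to 3 and at 0.33, 0.45 and 0.86 in 24 h replicates 1 to 3. Each 24 h array was the lower of its pair, replicate 3 only slightly, and the difference of -0.39 did not pass (SE 0.101, adjusted p 0.0621). Its relative Snai2 rose by 0.20 (adjusted p 0.0465), with overlapping groups, and did not pass without the block or on the arrays of 4 h and 24 h alone. Of 13 measured BMP target genes, Snai2 was the 1 that rose, the BMP antagonist Nog fell by 0.34, and 11 did not pass (median -0.03). Among all genes 3.25% fell and 2.88% rose. Of 26 ligands, receptors and mediators of BMP and TGF-beta signalling, 4 fell: the activin subunit Inhba by 0.46, the ligand Tgfb1 by 0.33, the type I receptor Acvr1 by 0.31 and the SMAD repressor Skil by 0.31. The ligand Tgfb2 rose by 0.44, and 21 did not pass.

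**Figure D5:**
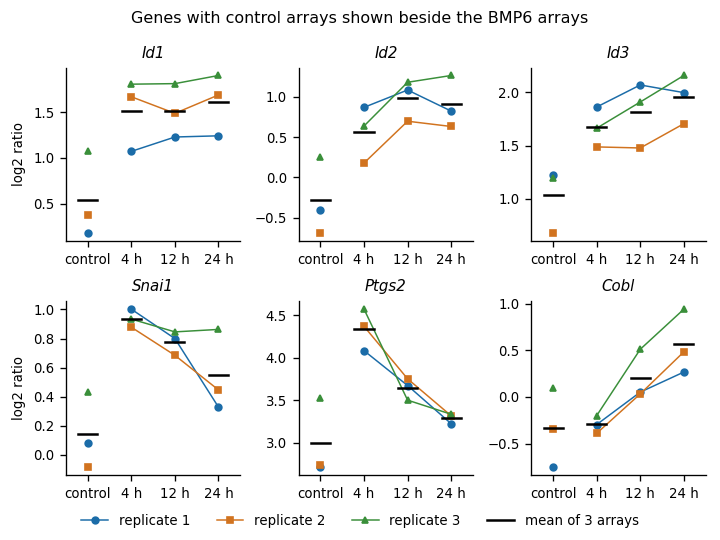
Log2 ratio of cells to reference (vertical) in mock-treated control arrays and at 4, 12 and 24 h of BMP6 (horizontal) for Id1, Id2, Id3, Snai1, Ptgs2 and Cobl; symbols are the 3 replicate numbers and black bars are means of 3 arrays. Id1, Id2 and Id3 stay above the control means at all times, Ptgs2 declines from 4 h to 24 h, and Cobl lies near the control mean at 4 h and above it at 24 h.

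The mock-treated arrays, which no test of 24 h against 4 h used in the 9-array fit, give levels beside which the 4 h and 24 h values can be set. They form a single group without a stated harvest time. Hours of BMP6 and hours in culture therefore cannot be told apart between 4 h and 24 h. In the 12-array paired fit 498 genes (6.02%) differed from mock-treated cells at 4 h, 188 higher (2.27%) and 310 lower (3.75%), and 14 (0.169%) at 24 h, 6 higher (0.0726%) and 8 lower (0.0968%); these comparisons share their control arrays, and each shares arrays with that of 24 h against 4 h. Of the 15 largest falls, 14 were called against control at 4 h, from 0.57 for Ccl2 to 1.41 for Wnt2, and 0 at 24 h, where the 15 stood at -0.47 to 0.54. A gene not called at 24 h need not be back at control. Wnt2 still stood 0.54 above it (SE 0.12, adjusted p 0.192), and Adamts5, among the rises, 0.50 below it (SE 0.106, adjusted p 0.16). With 14 calls at 24 h against 498 at 4 h, the adjustment asked for a smaller unadjusted p at 24 h. The fall not called at 4 h was Mgp, at 0.50 (adjusted p 0.123). Of the 15 largest rises, 11 were called at 4 h, at -1.35 to 0.04 among the 15, and 1 at 24 h. That 1 was Cobl, which stood 0.04 from control at 4 h and 0.90 above it at 24 h (adjusted p 0.0196). Over all changed genes such calls at 4 h were less frequent: 131 of the 269 that fell and 154 of the 238 that rose differed from control at 4 h. The 24 h mean lay between those of 4 h and control for 84 of the 269 and on the other side of control for 177, 9 of the 15 largest falls among them. For the 238 that rose these counts were 135 and 97. Of all 507 changed genes, 7 differed from control at 24 h. Adamts1 remained 0.42 below control after its rise, and Pxylp1 stood 0.44 above it. B3gnt5, Tgm2, Tuba1c and 2510002D24Rik stood 0.56, 0.35, 0.67 and 0.38 below control at 24 h, and at -0.06, -0.05, -0.07 and 0.02 from it at 4 h; these and Pxylp1 were named after their values were seen.

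At 12 h the mean of 213 of the 238 genes that rose and of 212 of the 269 that fell lay between those of 4 h and 24 h. A median of 55.1% of the rise and 66.86% of the fall had taken place by then, as a description that shares the 4 h and 24 h arrays with the choice of genes. Of the genes that fell, 45 were lower at 12 h than at 24 h and 12 were higher at 12 h than at 4 h.

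Upstream sequence was searched for short motifs in 250 bases before the start site in RefSeq's promoter table (GRCm38.p6), on both strands. The promoters of Ptgs2, Tnfrsf12a and Cavin2 are printed because these genes passed with and without the replicate block and have 1 entry each in the table. Capitals mark a match to the AP-1 word TGANTCA, the SMAD word GGCGCC, the E-box CACGTG or the TATA box word TATAAA; matches of different words were counted separately and may overlap.
Ptgs2, chr1:150099781-150100030, plus strand: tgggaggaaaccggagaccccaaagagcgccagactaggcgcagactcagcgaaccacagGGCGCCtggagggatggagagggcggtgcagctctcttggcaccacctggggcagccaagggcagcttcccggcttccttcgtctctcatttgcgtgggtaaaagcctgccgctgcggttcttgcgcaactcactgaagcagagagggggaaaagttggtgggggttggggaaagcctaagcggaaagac
Tnfrsf12a, chr17:23677450-23677699, minus strand: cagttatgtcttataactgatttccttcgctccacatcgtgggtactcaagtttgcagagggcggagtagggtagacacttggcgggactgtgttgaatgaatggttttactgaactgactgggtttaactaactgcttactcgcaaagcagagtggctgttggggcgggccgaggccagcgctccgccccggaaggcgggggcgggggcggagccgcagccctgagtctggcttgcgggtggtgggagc
Cavin2, chr1:51288876-51289125, plus strand: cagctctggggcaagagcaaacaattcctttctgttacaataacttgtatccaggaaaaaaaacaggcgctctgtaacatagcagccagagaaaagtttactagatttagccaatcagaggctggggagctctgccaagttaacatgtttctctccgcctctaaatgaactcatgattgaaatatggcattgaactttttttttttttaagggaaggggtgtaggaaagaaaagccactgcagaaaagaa

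The Ptgs2 window holds 1 SMAD word, from 190 to 185 bases before the start site, and the windows of Tnfrsf12a and Cavin2 hold none of the 4 words. Of the genes that fell, 205 of 269 had promoters in the table, and the SMAD word was in 15.8% of their 253 promoters; for the genes that rose, 188 of 238 had promoters and 14.2% of 253 held it. Among promoters of all genes tested the share was 16.4%, and 9.59% among all 32851 promoters listed. The AP-1 word was in 5.53%, 3.95%, 4.65% and 6.75% of promoters of genes that fell, genes that rose, all genes tested and the whole table. The E-box was in 10.3%, 11.5%, 8.56% and 6.02%, and the TATA word in 7.91%, 7.91%, 6.73% and 12.4%, in the same order. These shares are descriptions, and the shares of changed genes lay within 3 percentage points of those of all genes tested.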

How the data were processed

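Expression was measured on 12 two-colour arrays, in 4 groups of 3. Per the labels, arrays were scanned with a GenePix 4000B, quantified with GenePix Pro 5.0, and the authors applied a modified quantiles normalization; the deposited values are taken as log2 ratios of cells to reference. No spot intensities were used, so detection is not assessed; precision is limited by the 3 arrays per group. Platform annotation lists 11083 probe numbers; 10576 have 1 symbol, giving 8267 genes (symbols updated through gene identifiers for 10548 probes), and 507 with several name none. Probe numbers were placed on value rows by a reordering that all gene names rest on, and probes of a gene were averaged.

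Two-sided moderated tests (limma 3.58.1 under R 4.3.3, functions lmFit and eBayes) were fitted to the 9 BMP6 arrays with time and replicate number as terms (4 residual degrees of freedom), with Benjamini-Hochberg adjustment over 20280 rows or 8267 genes. The replicate numbers pair the arrays because same-numbered deviations correlated above 0.1 in all 3 pairs; the pairing comes from the titles. Values against control come from the same model on 12 arrays. Named genes were the 15 largest rises and 15 largest falls with a call and 3 of 3 pairs, each called member of 31 gene lists (842 genes, 538 measured, 80 called), and 15 fixed genes, of which 13 were measured. The comparison, lists and fixed genes were chosen with earlier results of these data known. No set test was run. Alternatives were the fit without the block, other sets of arrays, quantile normalization, median centring, a trended prior, another probe rule, each replicate number left out, and the methods' t-test.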

Additional observations from a re-analysis of the deposited data

How the results depend on the processing

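The paired fit of 9 arrays called 507 genes and 543 probes. With no replicate block it called 7 genes and 8 probes. On the 6 arrays of 4 h and 24 h alone it called 109 genes and 68 probes, of which 104 and 61 were among the main calls. With all 12 arrays it called 335 genes, 321 of them shared, and 420 probes. The methods' t-test (two-sided, unpaired, 3 arrays against 3) reached an unadjusted p under 0.05 for 578 genes and 1133 probes and, after adjustment, for 1 gene and 1 probe. With a replicate number left out, calls ranged from 0 to 309 genes and from 0 to 88 probes; these fits have 2 residual degrees of freedom. Quantile normalization gave 551 genes, median centring 483, a trended robust prior 596, and the probe with the highest mean in place of the mean of probes 538. Of the 94 named calls, 88 were lost without the block, 46 on 6 arrays, 20 on 12 arrays, 94 with the t-test, and 23, 94 and 85 without replicate 1, 2 and 3; the other settings lost 2 to 5. Ajuba and Nop56 were lost in 10 settings and Snai2, Kif11 and Serpinb1a in 8. None of the 94 changed direction. Ptges, which was not called, stood at -0.0013 in the main fit, -0.0085 to 0.0075 with a replicate number left out, and above 0 only without replicate 3 (0.0075). Depth does not apply to arrays; signal over background could not be assessed.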
